A study of Homo sapiens with 6 samples.

Results

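The genes described here build the mitochondrial protein import machinery and keep imported proteins folded and turned over: translocases, chaperones, proteases and the membrane scaffolds around them. They were chosen by symbol from a list of 48 genes, all present among the 54628 gene symbols of each library, and 46 had enough counts to be tested among 14100 genes. RNA-seq had been done on U87 cells, an established human glioblastoma line, which the labels describe as taken from a co-culture by fluorescence-activated sorting. The 2 groups were cycling U87 cells titled as having received mitochondria (received, 3 libraries) and cycling U87 cells titled as not having received them (not received, 3 libraries). Both groups came from the co-culture, and neither was titled as quiescent or as grown alone. The series title names astrocytes and a mitochondrial shuttle, but the donor cells, the time in co-culture, and the marks used for sorting and for cycling are not named in the sources used here. Whether the 3 libraries of a group were separate cultures was not stated either, so each p-value reflects the spread of these libraries alone, which may be technical.

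Nearly all mitochondrial proteins are encoded in the nucleus, made in the cytosol and carried into the organelle as precursors. The TOM complex is the entry gate in the outer membrane. From there precursors pass to the TIM23 translocase and its motor for the matrix, to the TIM22 route for carrier proteins of the inner membrane, to the MIA relay for oxidative folding between the membranes, or to the SAM complex for barrel proteins of the outer membrane. Matrix peptidases cut off the targeting sequence, chaperones of the HSP60, HSP70 and HSP90 families fold the product, and ATP-dependent and other proteases remove what is damaged or regulate membrane shape.

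Received cells had more mRNA of many of these genes, by small amounts. Of the 46 tested members, 15 rose, which is 32.6% of them, beside 9.21% of all tested genes called higher with the same test (edgeR's quasi-likelihood test, Benjamini-Hochberg adjusted p under 0.05 over all 14100 genes). No member was called lower by edgeR, none reached an unadjusted p under 0.05 in that direction, and DESeq2 and limma-voom called 0 lower as well, beside 9.67% of all genes called lower by edgeR. The 15 were the receptors TOMM20, TOMM22 and TOMM70, the co-chaperone TOMM34, the TIM23 components TIMM17A, TIMM17B and DNAJC19, the chaperones TRAP1 and CLPB, the protease genes CLPX, HTRA2, OMA1 and PARL, and the scaffolds PHB2 and STOML2. Their log2 fold changes, received over not received, ran from 0.19 to 0.54 with a median of 0.27, or 1.14-fold to 1.46-fold, so that none reached 1.5-fold. Over all 46 tested members the median log2 fold change was 0.15, and 41 (89.1%) stood above 0, against a median of -0.001 and 49.8% above 0 over all tested genes. Without not-received replicate 2, 35 of the 46 stood above 0. The 3 received libraries lay above all 3 not-received libraries for 24 members (52.2%, beside 19.5% of all tested genes) and below them for 2, TIMM21 and GFER (beside 19.5% of all tested genes).

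The member count depended on single libraries. It was 2 without received replicate 3, 3 without received replicate 1 and 3 without received replicate 2, which are 4.35%, 6.52% and 6.52% of the members, beside 4.52%, 4.23% and 4.15% of all genes called higher in those fits. Leaving out 1 not-received library left 13, 9 or 10 members called higher (replicates 1, 2 and 3 in turn), which are 28.3%, 19.6% and 21.7%, beside 7.29%, 9.48% and 8.58% of all genes. TRAP1 and CLPB were the only members called in each of these 6 fits. The median log2 fold change of the members stayed between 0.11 and 0.19 over the same 6 fits.

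**Figure D1:**
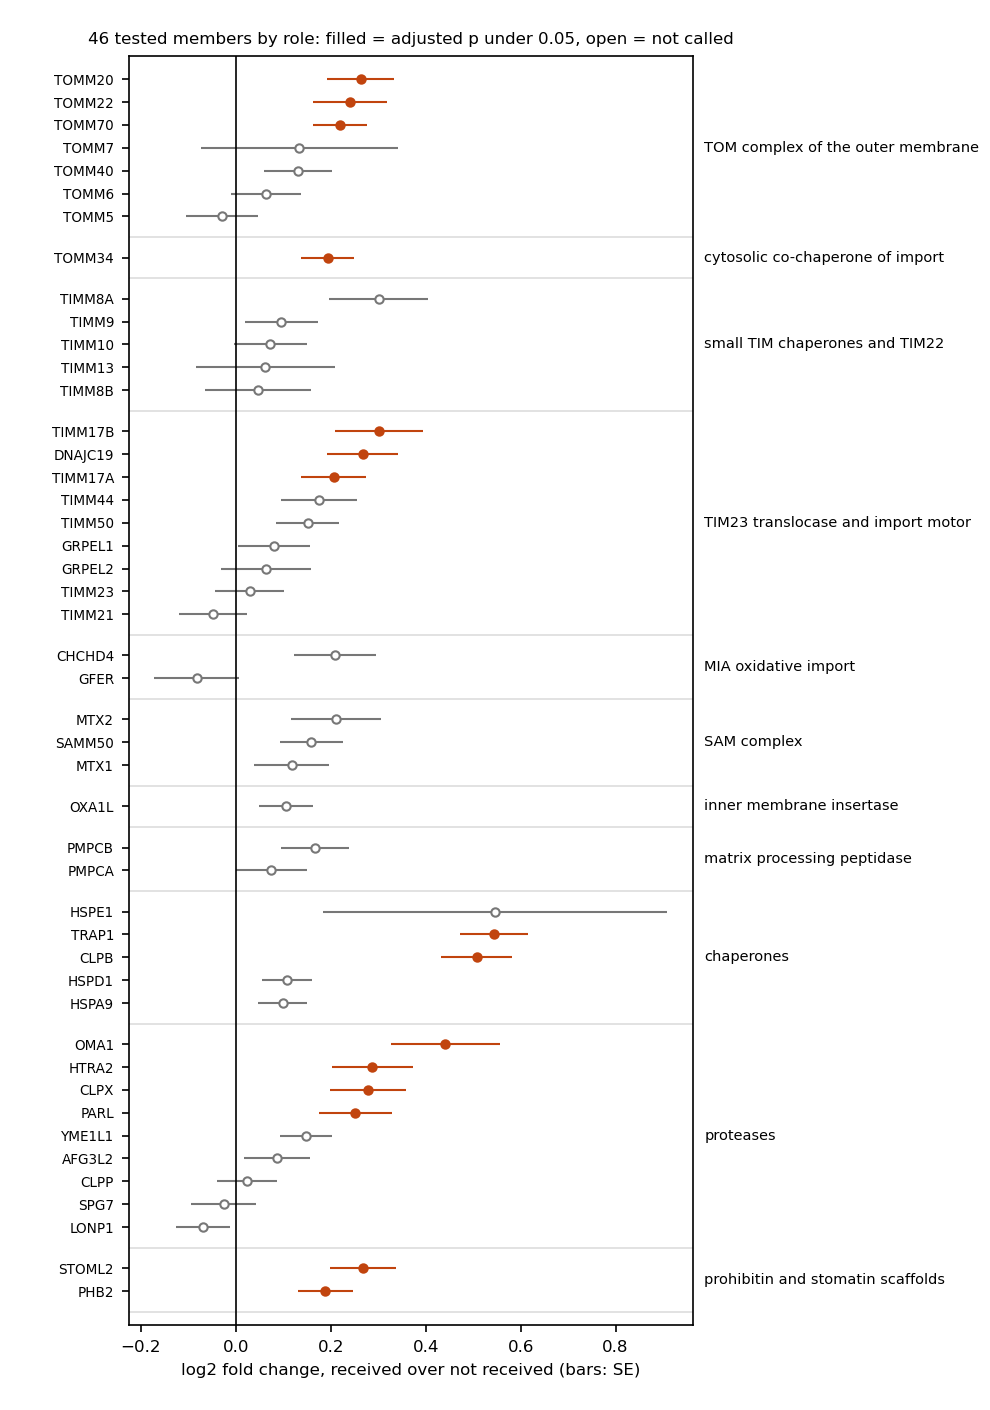
Log2 fold change, received over not received, of each of the 46 tested members, grouped by role, with its standard error as a bar. Filled points are the 15 members with an edgeR adjusted p under 0.05, open points the 31 others, and 41 of the 46 points lie right of 0.

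Library totals ran from 17879552 to 46392491 counts. Levels are given in CPM, a gene's count relative to its library's total after TMM scaling, and 3 counts amount to 0.0661 CPM in the deepest and 0.167 CPM in the shallowest library, a floor that covers counting error only. The deepest library, not-received replicate 2, stood apart: chi-square per gene was 22.1 and 20.2 against the other libraries of its group, 5.80 between those, and 3.39 to 3.89 among the received libraries. No pair agreed within sampling noise. The cells matched their label in part: all 8 mesenchymal glioblastoma line markers were tested, while 7 of 12 astrocyte markers lay under 1 CPM in every library, with AQP4, ALDH1L1 and GJB6 at 0 and GFAP at 0.598 CPM or less. The summed level of the astrocyte markers was 392 to 429 CPM in received and 330 to 381 CPM in not-received libraries, with GJA1 alone at a mean of 297 and 228 CPM. Of the 5 tested, GJA1 and SOX9 were called higher and SLC1A3, SLC4A4 and ALDOC had log2 fold changes of -0.20, -0.10 and -0.21 without a call, for a list median of -0.10. The part of these markers in the result was not tested. Of the 8 microglia and macrophage markers 6 lay under 1 CPM in every library, with AIF1, CX3CR1, TYROBP and P2RY12 at 0, and CD68 was called higher. Their summed level was 493 to 508 CPM in received and 370 to 410 CPM in not-received libraries, with CD68 alone at a mean of 481 and 374 CPM. CSF1R, the other tested marker of this list, was at a mean of 21.2 and 20.5 CPM and was not called (0.04 log2, edgeR adjusted p = 0.751). The part of these markers in the result was likewise not tested. In bulk RNA a change in how many cells of a kind were sorted and a change in RNA per cell cannot be told apart.

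Not-received replicate 2 also bore on the members directly. It was the lowest of the 6 libraries for 33 of the 46 tested members and the highest for 0, while 22% of all tested genes were lowest there. It was also the lowest for 12 of the 15 called members. All 15 had their lowest library in the not-received group, so the 22% is not a like baseline for that count. Against the mean of the other not-received libraries, not-received replicate 2 deviated by a median of -0.15 on the log2(CPM + 0.5) scale over the members. The range was -1.08 for HSPE1 to 0.13 for AFG3L2, with 40 of 46 below 0. Over the 11622 tested genes with a known transcript length 50.3% were below 0. The deviation went with transcript length: the median over those genes was -0.158 for coding transcripts under 800 bases and 0.143 for those of 5000 bases or more. Across the 46 members Spearman's rho between length and deviation was 0.61, and across the 11622 tested genes with a length it was 0.44; genes share the same libraries, so both are descriptions. When each member was set against the median fold change of all genes in its length bin, 38 of 46 lay above it with all libraries and 36 of 46 without not-received replicate 2. This length comparison was added after the values had been seen.

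**Figure D2:**
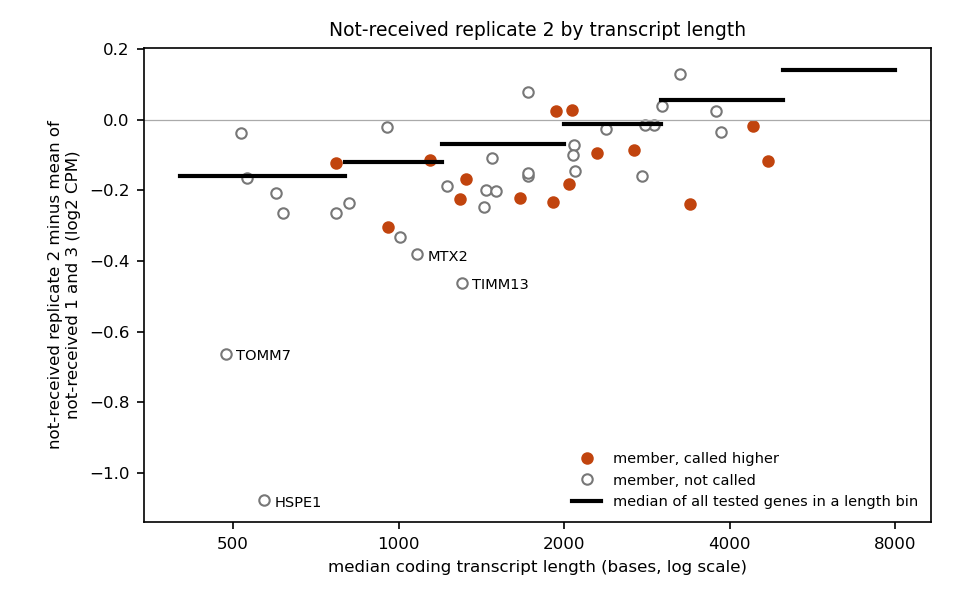
Deviation of not-received replicate 2 from the mean of not-received replicates 1 and 3 (log2 CPM, pseudocount 0.5) against the median length of each gene's coding transcripts in bases on a log scale. Filled and open circles are called and uncalled members, black lines the medians of all tested genes in a length bin, which climb from -0.158 to 0.143, and HSPE1 lies lowest at -1.08.

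The members differed widely in level. Per kilobase of transcript, received libraries had 356 ± 10.2 CPM per kb of HSPD1 (SD, n = 3), the matrix chaperonin, and 274 ± 10.6 CPM per kb of PHB2, the prohibitin subunit. At the other end OMA1, a stress-activated protease of the inner membrane, stood at 5.81 ± 0.296 CPM per kb. TIMM22, the channel of the carrier route, and DNAJA3, a matrix J-protein, had 0 counts in all 6 libraries, which allows at most 0.167 CPM in the shallowest. The sources used here do not give how the counting treated these genes.

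Promoters of the called members are shown because import genes are known targets of the ETS-family factor GABP and of NRF1. Shared control of the called members was not tested. RefSeq promoter windows (assembly GRCh38.p14, 250 bases before to 50 after a start) were matched for 43 of the 48 members. The ETS string CCGGAAGT, searched on both strands, was in a window of 9 of the 43 (20.9%), of 5 of the 15 called and of 4 of the 26 matched and tested members that were not called, beside 4.95% of all 27305 genes with a window and 6.97% of 15843 protein-coding ones. The NRF1 string, which is GCGC, any base, then TGCGC, was in a window of 14 of the 43 (32.6%), of 4 of the 15 called and of 9 of the 26 not called, beside 6.98% of all genes and 9.67% of the protein-coding ones. The stretches that hold the ETS string in called members follow, 5′ to 3′ on the gene's strand, with the string in capitals. All 5 genes lie on the minus strand.
TOMM20, chr1:235128838-235128875: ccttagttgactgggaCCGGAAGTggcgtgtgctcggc
TOMM70, chr3:100401170-100401209: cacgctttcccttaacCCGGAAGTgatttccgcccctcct
PARL, chr3:183884886-183884925: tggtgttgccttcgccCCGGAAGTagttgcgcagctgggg
PHB2, chr12:6970888-6970927: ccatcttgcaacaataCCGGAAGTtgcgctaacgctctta
STOML2, chr9:35103196-35103222: gcgggggagggagctgCCGGAAGTaca

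The NRF1 string was found in the called members TOMM20, TOMM34, CLPX and OMA1, all on the minus strand, and is in capitals below. In TOMM20 and CLPX it reads on the strand opposite to the gene, so the printed capitals are its reverse complement.
TOMM20, chr1:235128913-235128954: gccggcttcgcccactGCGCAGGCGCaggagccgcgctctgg
TOMM34, chr20:44960398-44960427: gagatattcgccgccgGCGCTTGCGCccgg
CLPX, chr15:65185407-65185448: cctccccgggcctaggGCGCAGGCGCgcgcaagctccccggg
OMA1, chr1:58546729-58546770: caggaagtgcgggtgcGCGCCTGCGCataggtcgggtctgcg
TOMM20 was the single called member with both strings. TRAP1 and CLPB, which had the largest fold changes among the called members, held neither. The 100 bases before their starts are given for that reason, both on the minus strand.
TRAP1, chr16:3717525-3717624: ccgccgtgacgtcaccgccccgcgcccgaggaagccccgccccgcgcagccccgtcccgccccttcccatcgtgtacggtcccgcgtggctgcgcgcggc
CLPB, chr11:72434532-72434631: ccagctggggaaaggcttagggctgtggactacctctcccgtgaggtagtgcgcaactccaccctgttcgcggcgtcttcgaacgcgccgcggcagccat

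The other strings searched were a heat shock string GAANNTTC (1 of 43 members, HSPD1, beside 8.21% of all genes with a window), TGCAAT, a string of CHOP and C/EBP factors (4 of 43 beside 9.91%), CCAAT (15 of 43 beside 39.7%) and TATAAA (0 of 43 beside 14.0%). The median GC content of the member windows was 65.3%, and that of all protein-coding windows was 62.7%. HSPD1 and HSPE1, the chaperonin and its lid, start 105 bases apart in opposite directions. A match is a description of these letters, not a bound site.

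At the outer membrane the precursor receptors were called higher and the channel subunit was not called. The difference in fold change between the receptors and the channel was not tested. Of 7 TOM complex members 3 rose (42.9%, beside 9.21% of all genes), with a median log2 fold change of 0.13 over the 7. TOMM20, the receptor for cleavable targeting sequences, was at 177, 181 and 174 CPM in received and at 150.3, 132 and 162 CPM in not-received libraries (0.26 ± 0.07 log2, SE, edgeR adjusted p = 0.0203). TOMM70, the receptor for carrier precursors brought by cytosolic chaperones, was at 118, 122 and 120.2 CPM in received and at 100.1, 102 and 107 CPM in not-received libraries (0.22 ± 0.06, edgeR adjusted p = 0.0168). For both receptors every received library lay above every not-received one. TOMM22, the central receptor that holds the complex together, was at 67.2, 69.8 and 75.6 CPM against 65.6, 55.1 and 59.7 CPM (0.24 ± 0.08, edgeR adjusted p = 0.0438), with received replicate 1 and not-received replicate 1 close to each other. TOMM40, the channel itself, was at 195, 190.0 and 216 CPM against 199, 169.9 and 181 CPM, so its groups overlapped (0.13 ± 0.07, edgeR adjusted p = 0.213). The small subunits TOMM5, TOMM6 and TOMM7 had log2 fold changes of -0.03, 0.06 and 0.13, and none was called. The 3 receptor calls were lost without any 1 received library (edgeR adjusted p = 0.0585 to 0.189), and that of TOMM22 also without not-received replicate 2 (0.0765) or 3 (0.0847) and with limma-voom (limma adjusted p = 0.0519).

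TOMM34, a cytosolic co-chaperone that binds HSP70 and HSP90 and hands precursors to the organelle, was at 184, 189.7 and 188 CPM in received and 157, 166 and 168 CPM in not-received libraries (0.19 ± 0.06, edgeR adjusted p = 0.0273). The groups did not overlap, and not-received replicate 2 was not the lowest library here. It was no longer called when not-received replicate 1 (edgeR adjusted p = 0.0754) or any of the received libraries (0.0762 to 0.104) was left out.

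The small TIM chaperones, which escort hydrophobic precursors between the membranes, were not called by edgeR with all libraries and TMM scaling. Of 5 tested 0 rose and 0 fell, beside 9.21% and 9.67% of all genes. By unadjusted p under 0.05 (edgeR) 1 was higher, beside 2335 of all 14100 tested genes higher and 2360 lower. DESeq2 and limma-voom called 0, and the median log2 fold change was 0.07. TIMM8A came nearest, at 16.19, 17.16 and 16.01 CPM against 13.9, 11.9 and 14.5 CPM without overlap (0.30 ± 0.10, edgeR adjusted p = 0.0583). It was called with library size alone as scaling (edgeR adjusted p = 0.0382) and without not-received replicate 3 (0.0437). Its paralog TIMM8B was at 14.9 ± 1.603 against 14.5 ± 1.37 CPM (SD, n = 3 each).

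Among the 9 members of the TIM23 translocase and its motor 3 rose (33.3%, beside 9.21% of all genes), with a median log2 fold change of 0.15. Both forms of the TIM17 subunit, which lines the path through the inner membrane, were among them. TIMM17A was at 116, 117 and 119 CPM in received and 109, 91.9 and 106 CPM in not-received libraries (0.21 ± 0.07, edgeR adjusted p = 0.0493). TIMM17B was at 53.1, 47.7 and 54.1 CPM against 46.8, 36.4 and 43.2 CPM (0.30 ± 0.09, edgeR adjusted p = 0.0392). In both genes the groups were separate by a narrow gap and not-received replicate 2 was lowest. DNAJC19, a J-protein of the inner membrane related to the motor's co-chaperone, was at 31.6, 30.5 and 31.0 CPM against 26.3, 24.4 and 26.9 CPM (0.27 ± 0.08, edgeR adjusted p = 0.0245). TIMM23, the partner subunit of TIM17, was at 114, 99.2 and 107 CPM in received and 113, 96 and 106 CPM in not-received libraries (0.03 ± 0.07, edgeR adjusted p = 0.814). GRPEL1, the nucleotide exchange factor of the motor, was at 65.5, 65.9 and 75.1 CPM against 67.1, 60.5 and 68.1 CPM (0.08 ± 0.08, edgeR adjusted p = 0.491). For both of these the groups overlapped. The receptor TIMM50 (0.15) and the motor anchor TIMM44 (0.17) were not called, nor were GRPEL2 (0.06) and TIMM21 (-0.05). None of the 3 calls held without a received library (edgeR adjusted p = 0.0595 to 0.151) or without not-received replicate 2, where the log2 fold change of TIMM17A was 0.13 (0.0925), that of TIMM17B 0.20 (0.0697) and that of DNAJC19 0.22 (0.0562), and the TIM17 forms were also not called without not-received replicate 3 (0.0542 and 0.0656). With limma-voom TIMM17A was not called (limma adjusted p = 0.0585). TIMM17B overlaps PQBP1 in the RefSeq annotation and the sources used here do not give the strand of counting. PQBP1 itself had a log2 fold change of -0.07.

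The MIA relay, the SAM complex, the insertase and the processing peptidase held no called member. CHCHD4, the oxidoreductase that traps cysteine-rich precursors, was at 31.9 ± 2.44 CPM in received and 27.8 ± 2.23 CPM in not-received libraries (SD, n = 3), and GFER, which reoxidises it, was at 15.9 ± 0.278 and 16.9 ± 0.827 CPM. Their received libraries lay above and below the not-received ones, respectively, with edgeR adjusted p of 0.111 and 0.556. SAMM50, the barrel of the SAM complex, was at 77.5, 76.2 and 79.6 CPM against 72.8, 65.0 and 71.5 CPM without overlap (0.16 ± 0.07, edgeR adjusted p = 0.109). Its partners MTX1 and MTX2 had log2 fold changes of 0.12 and 0.21, the insertase OXA1L 0.11, and the peptidase subunits PMPCA and PMPCB 0.07 and 0.17. Of these 8 genes 4 had an unadjusted p under 0.05 (edgeR), all 4 upward, beside 2335 of all 14100 tested genes upward and 2360 downward. DESeq2 and limma-voom called 0. MTX2 was called with no low-count filter (edgeR adjusted p = 0.0339).

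**Figure D3:**
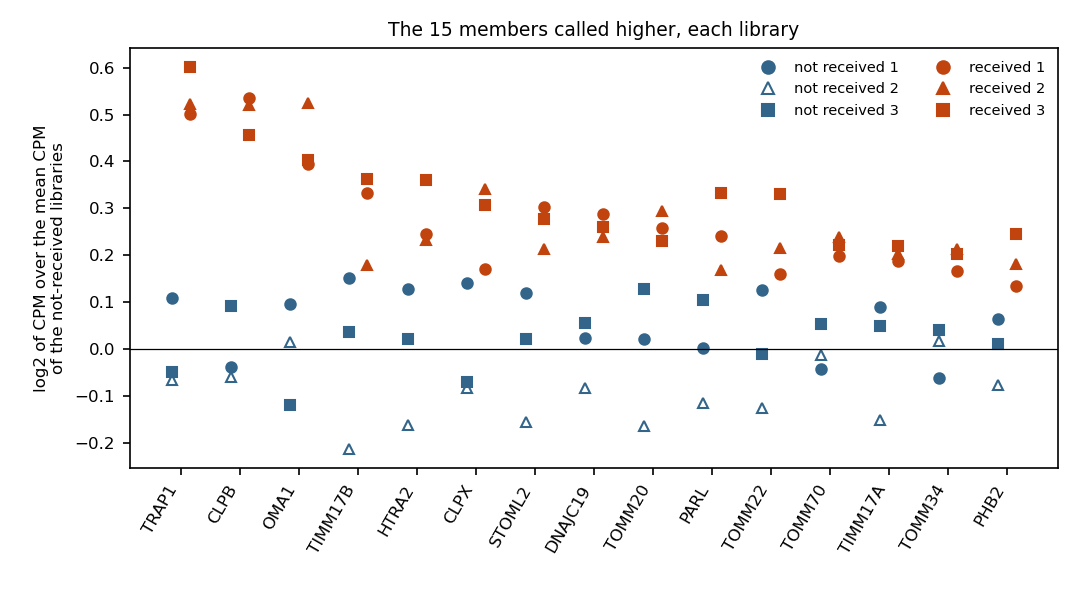
Log2 of each library's CPM over the mean of the not-received libraries, for the 15 called members in order of fold change, with blue symbols for not-received and orange symbols for received libraries and 1 shape per replicate number. Every orange symbol of a gene lies above its blue symbols, and the open triangle, not-received replicate 2, is the lowest symbol in 12 of the 15 genes.

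The chaperones split between large and small differences. TRAP1, the mitochondrial member of the HSP90 family, was at 67.2, 68.2 and 72.1 CPM in received and at 51.3, 45.4 and 45.9 CPM in not-received libraries, 69.2 ± 2.57 against 47.5 ± 3.26 CPM (SD, n = 3 each). The fold change was 0.54 ± 0.07 on the log2 scale (SE, edgeR adjusted p = 0.000183). CLPB, a disaggregase of the space between the membranes, was at 42.1, 41.6 and 39.9 CPM against 28.3, 27.9 and 31.0 CPM, 41.19 ± 1.18 against 29.04 ± 1.68 CPM (0.51 ± 0.08, edgeR adjusted p = 0.00051). In both genes the gap between the groups was wider than the range within either group. Over all 13 alternatives, including each library left out, the edgeR, DESeq2 or limma adjusted p was at most 0.00426 for TRAP1 and 0.00609 for CLPB, and the log2 fold changes ran from 0.51 to 0.60 and from 0.47 to 0.55. TRAP1 overlaps DNASE1 in the annotation, which stood at -0.25 log2 (edgeR adjusted p = 0.135), while CLPB overlaps no tested gene.

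The major folding machines of the matrix were not called, HSPD1 and HSPA9 with small differences and HSPE1 with a fold change as large as that of TRAP1 but a wide spread. HSPD1, the HSP60 chaperonin, was at 823, 842 and 871 CPM in received and at 794, 775 and 786 CPM in not-received libraries (0.11 ± 0.05, edgeR adjusted p = 0.173). HSPA9, the mitochondrial HSP70 that pulls precursors through the inner membrane, was at 559.9, 565 and 556 CPM against 519, 529 and 521 CPM (0.10 ± 0.05, edgeR adjusted p = 0.194). In both the groups did not overlap, and for HSPA9 not-received replicate 2 was the highest of its group. HSPE1, the lid of the chaperonin, was at 51.2, 57.1 and 47.2 CPM against 49.1, 20.5 and 39.2 CPM, where the groups overlapped and not-received replicate 2 lay far below the rest (0.55 ± 0.36, edgeR adjusted p = 0.371). Without that library the log2 fold change of HSPE1 was 0.24. Pseudogenes listed in the files held 6.36% as many counts as HSPE1 and 0.992% as many as HSPD1, so reads shared with such copies make the level of HSPE1 in particular uncertain. The summed level of the tested chaperones was 1568 ± 21.99 CPM in received and 1421 ± 21.87 CPM in not-received libraries (SD, n = 3 each).

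Of the 9 protease genes 4 rose (44.4%, beside 9.21% of all genes), with a median log2 fold change of 0.15. OMA1, which cleaves OPA1 and DELE1 when the inner membrane is stressed, was at 10.89, 11.91 and 10.95 CPM in received and at 8.85, 8.37 and 7.62 CPM in not-received libraries (0.44 ± 0.11, edgeR adjusted p = 0.0165). CLPX, the unfoldase that feeds the CLPP chamber, was at 50.7, 57.0 and 55.7 CPM against 49.6, 42.5 and 42.8 CPM (0.28 ± 0.08, edgeR adjusted p = 0.0287). The groups of OMA1 were well apart, whereas received replicate 1 and not-received replicate 1 of CLPX nearly met. HTRA2, a serine protease of the space between the membranes, was at 42.47, 42.11 and 45.97 CPM against 39.11, 32 and 36.33 CPM (0.29 ± 0.09, edgeR adjusted p = 0.0311). PARL, the rhomboid protease that cleaves PINK1, was at 57.4, 54.6 and 61.1 CPM against 48.6, 44.8 and 52.2 CPM (0.25 ± 0.08, edgeR adjusted p = 0.0361). Neither gene's groups overlapped, and not-received replicate 2 was the lowest library in both.

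The other proteases were not called by edgeR with all libraries and TMM scaling. LONP1, the main ATP-dependent protease of the matrix, was at 319, 308 and 316 CPM in received and at 347, 328 and 316 CPM in not-received libraries (-0.07 ± 0.06, edgeR adjusted p = 0.412). CLPP, the peptidase chamber that CLPX serves, was at 85.7, 79.1 and 77.7 CPM against 81.6, 78.9 and 78.4 CPM (0.02 ± 0.06, edgeR adjusted p = 0.831). Both genes had overlapping groups. YME1L1, the ATP-dependent protease that faces the space between the membranes, was at 170.1, 180.0 and 176 CPM against 156, 156 and 163 CPM without overlap (0.15 ± 0.06, edgeR adjusted p = 0.0789). YME1L1 was called with library size alone as scaling (edgeR adjusted p = 0.0337). AFG3L2 and SPG7, which form the matrix-facing counterpart, had log2 fold changes of 0.09 and -0.03.

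Among the protease calls, those of OMA1, HTRA2 and PARL were lost without any 1 received library (edgeR adjusted p = 0.0513 to 0.156), and that of CLPX without received replicate 2 (0.132) or 3 (0.113). Leaving out not-received replicate 1 ended the call of PARL (0.0622), replicate 2 those of HTRA2 (0.0616) and PARL (0.0629), and replicate 3 those of CLPX (0.0779) and HTRA2 (0.0513). HTRA2 overlaps AUP1, which was called lower (-0.21, edgeR adjusted p = 0.0412), and LOXL3 (-0.13).

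Both scaffold genes rose, beside 9.21% of all genes. STOML2, a stomatin-like protein that gathers PARL and YME1L1 in the inner membrane, was at 186, 175 and 183 CPM in received and at 164, 135 and 153 CPM in not-received libraries (0.27 ± 0.07, edgeR adjusted p = 0.0173). PHB2, a subunit of the prohibitin ring, was at 300.4, 311 and 325 CPM against 286, 259 and 276 CPM (0.19 ± 0.06, edgeR adjusted p = 0.0385). The groups did not overlap in either gene. The call of STOML2 was lost without received replicate 1 (edgeR adjusted p = 0.0864) or 3 (0.0749), and that of PHB2 without any received library (0.076 to 0.158) or without not-received replicate 3 (0.0644). PHB1, the other subunit of the ring and not a member of the list, had a log2 fold change of 0.06 and was not called.

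Ratios of partner genes within a library need no scaling between libraries, and each of 10 pairs was put through an exact permutation test (two-sided), whose smallest possible p with 3 against 3 is 0.1. Of the 10 ratios 8 overlapped between the groups. YME1L1 over OMA1, counterparts in OPA1 cleavage, was 19.2 ± 1.93 in not-received and 15.6 ± 0.475 in received libraries (SD, n = 3 each, log2 difference -0.30, exact permutation p = 0.1, adjusted p = 0.4). TIMM8A over TIMM8B was 0.928 ± 0.0171 and 1.12 ± 0.164 (0.26, exact permutation p = 0.1, adjusted p = 0.4). HSPD1 over HSPE1 was 37.8 in not-received replicate 2 and 14.7 to 20.1 in the other 5 libraries. No ratio passed the adjusted threshold, which this design cannot reach.

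**Figure D4:**
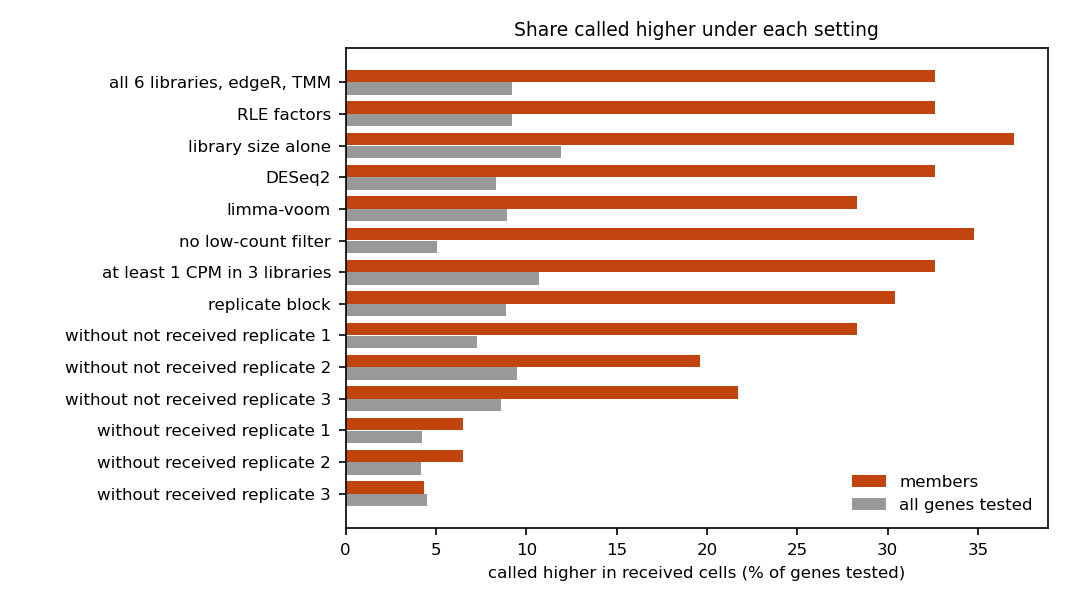
Percent of tested members (orange) and of all tested genes (grey) called higher with all 6 libraries and under each alternative test, scaling, filter or left-out library. The member bar is 32.6% against 9.21% with all libraries and falls to 4.35% to 6.52% against 4.15% to 4.52% when 1 received library is left out.

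Genes of the same pathways outside the 48 were tested as well, and the few called with all libraries were higher in received cells. Among 18 tested import genes 3 rose (16.7%, beside 9.21% of all genes) and 0 fell, with a median log2 fold change of 0.13. COX18, an insertase for a subunit of cytochrome oxidase, was at 29.5 ± 1.77 CPM in received and 20.6 ± 2.55 CPM in not-received libraries (SD, n = 3, 0.53 ± 0.10, edgeR adjusted p = 0.00216), and HSCB (0.31), a co-chaperone of iron-sulfur assembly, and XPNPEP3 (0.31), a peptidase that trims imported proteins, were the others. Among 19 quality control genes 4 rose (21.1%, beside the same 9.21%) and 0 fell, with a median of 0.07: MAIP1 (0.37), which assists assembly of the AFG3L2 protease, BCS1L (0.35), a chaperone of complex III assembly, ATAD1 (0.34), which extracts mislocalised proteins from the outer membrane, and PGAM5 (0.26), a phosphatase that PARL cleaves. The counts of 3 and 4 were 1 and 2 without not-received replicate 2, 1 and 1 without received replicate 1, 1 and 2 without received replicate 2, and 1 and 1 without received replicate 3, and 1 quality control gene, MUL1, was called lower without not-received replicate 2. Without a received library 1 of 18 import genes is 5.56%, and 1 or 2 of 19 quality control genes is 5.26% or 10.5%, beside 4.15% to 4.52% of all genes. Without not-received replicate 2 the shares were 5.56% and 10.5%, beside 9.48% of all genes. HSCB was not called with DESeq2, with no low-count filter or with any 1 library left out. COX18 and ATAD1 were called in each of the 6 fits that left out a library.

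Among the cytosolic chaperones the few genes that passed the test were lower in received cells. Of 16 tested 0 rose and 3 fell with edgeR (18.8%, beside 9.67% of all genes called lower), none had an unadjusted p under 0.05 upward, DESeq2 called 0 higher, and the median log2 fold change was -0.06. DNAJA1, a J-protein that works with HSP70 and delivers precursors, was at 344, 345 and 358 CPM in received and at 432, 437 and 421 CPM in not-received libraries (-0.30 ± 0.05, edgeR adjusted p = 0.00167). HSPA8, the constitutive HSP70, was at 2167 ± 78.6 against 2493 ± 45.1 CPM (-0.20 ± 0.06, edgeR adjusted p = 0.0224). HSP90AA1, an HSP90 of the cytosol, was at 3308 ± 44.6 against 3714 ± 40.9 CPM (-0.17 ± 0.05, edgeR adjusted p = 0.044). The 3 genes had no overlap between the groups, and DNAJA1 was the one still called when any 1 received library was left out. In those fits 1 of 16 (6.25%) was called lower, beside 4.74% to 5.13% of all genes, so the share lay near that of all genes. HSP90AA1 was also not called without not-received replicate 1 or 3, with library size alone or with no low-count filter, and HSPA8 not without not-received replicate 3. The difference in fold change between mitochondrial and cytosolic chaperones was not tested.

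**Figure D5:**
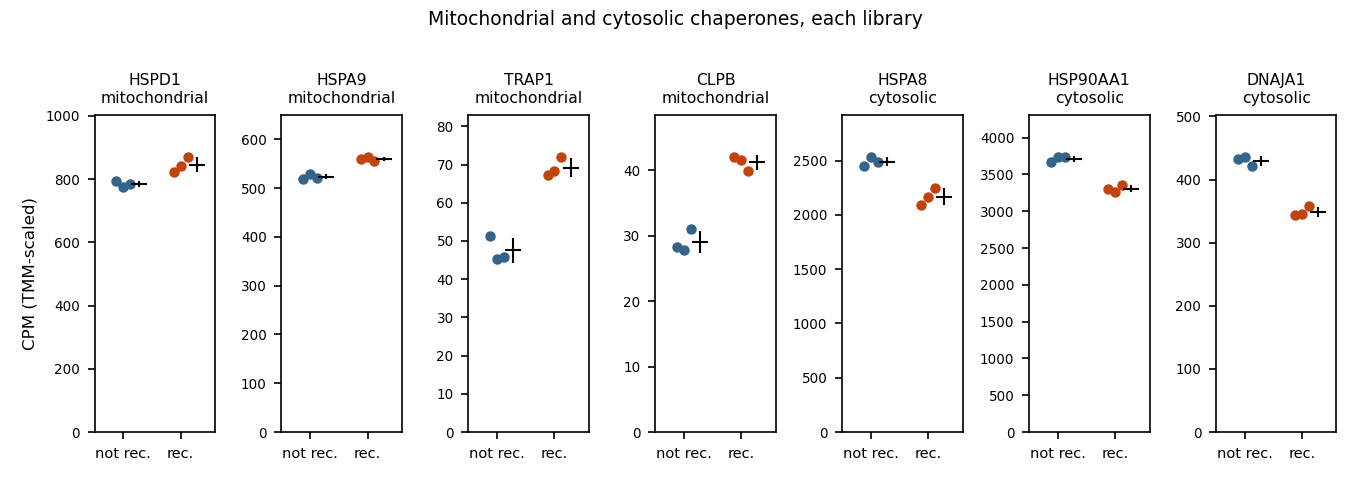
TMM-scaled CPM of 4 mitochondrial and 3 cytosolic chaperones in each library, not received in blue and received in orange, with the mean and SD of the 3 libraries as a black mark beside the points and an axis from 0 for each gene. The points of TRAP1 and CLPB stand well above their not-received counterparts, those of HSPD1 and HSPA9 by little, and those of HSPA8, HSP90AA1 and DNAJA1 below.

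Of the factors and targets of the mitochondrial stress response 12 were tested, of which 1 rose (8.33%, beside 9.21% of all genes) and 2 fell (16.7%, beside 9.67%), with a median log2 fold change of -0.11. ATF5, a transcription factor linked to the response to unfolded mitochondrial proteins, was at 20.7, 19.0 and 22.4 CPM in received and at 36.72, 30.37 and 27.99 CPM in not-received libraries (-0.61 ± 0.10, edgeR adjusted p = 0.00151). PHGDH, the first enzyme of serine synthesis, also fell (-0.32 ± 0.08, edgeR adjusted p = 0.0109), and MTHFD2, a folate enzyme of the matrix, rose (0.18 ± 0.06, edgeR adjusted p = 0.0478). Leaving out not-received replicate 2 gave 4 lower calls and 1 higher call, ATF4, and leaving out received replicate 3 gave 1 lower call. With all libraries ATF4 was not called (0.13 ± 0.06, edgeR adjusted p = 0.163), while its received libraries lay above the not-received ones. PHGDH was not called without received replicate 3. MTHFD2 was not called in the fits that omitted not-received replicate 1 or 2 or a received library, with limma-voom, or with no low-count filter.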

How the data were processed

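RNA-seq was done on 6 libraries of sorted U87 cells, from mRNA captured on poly-T beads with random hexamer priming and paired-end sequencing, per the labels' protocols. Each library has 1 deposited file of read counts by gene symbol, which the authors left unnormalized. DESeq and R 3.6.1 are named in the submitters' processing notes. The sources used here do not give the aligner, counting program, strand setting, genome build or annotation. Titles gave the groups, 3 libraries each, and 0 columns were left without a sample.

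After filterByExpr on the group and TMM scaling, the quasi-likelihood test of edgeR 4.0.16 (glmQLFit with robust estimation, then glmQLFTest, R 4.3.3) compared received with not-received libraries, with no covariate. Benjamini-Hochberg adjustment ran over all 14100 genes, and a call needs an adjusted p under 0.05. Standard errors were taken as the size of the log2 fold change over the square root of F. The procedure was tried on simulated counts with the same relative spread for every gene and no library set apart. That setting differs from these data, so it does not bear on how far the calls depend on single libraries. Alternatives were RLE factors, library size alone, DESeq2 1.42.0, limma-voom (limma 3.58.1), no low-count filter, at least 1 CPM in 3 libraries, the replicate number as a block, and each library left out.

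The members, the related lists and the tests were chosen with earlier results of these data known. Each called member and a fixed set of central members were given library by library, and up to 4 called genes with the largest fold change and an average log2 CPM of at least 1 were named from each related list. Transcript lengths are medians of coding transcripts in a GENCODE annotation of the reference, 48 of 48 members matched, and promoters are from RefSeq GRCh38.p14. No set test was run.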

Additional observations from a re-analysis of the deposited data

How the results depend on the processing

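The count of 15 members called higher was 15 with RLE factors, 17 with library size alone, 15 with DESeq2, 13 with limma-voom, 16 with no low-count filter and 15 with at least 1 CPM in 3 libraries, beside 5.05% to 11.9% of all genes called higher under the same 6 settings. It ran from 2 to 13 when 1 library was left out. Members called lower stayed at 0 in all 13 alternatives. Over all genes the higher calls ran from 604 to 1356 and the lower calls from 691 to 1579 with 1 library left out, and lower calls were 2084 with no low-count filter, against 1298 and 1364 with all libraries. Leaving out a library of either group leaves 2 against 3, and the lower counts without a received library (2 or 3 members, 604 to 661 genes higher) than without a not-received one (9 to 13 members, 1060 to 1356 genes) were not traced to a cause. Higher calls were 48.8% of all calls with TMM factors and 60.3% with library size alone. With 1 library left out the log2 fold change of TIMM23 ran from -0.03 to 0.08 and that of CLPP from -0.02 to 0.06. Without not-received replicate 2, 6 members turned below 0: TIMM23 (-0.03), TOMM6 (-0.02), TOMM7 (-0.07), TIMM8B (-0.04), TIMM13 (-0.09) and GRPEL2 (-0.05), which left 35 of 46 above 0 beside 50.4% of all genes. TIMM23 (-0.02) and CLPP (-0.02) turned below 0 without received replicate 1, and TIMM8B without received replicate 3. TOMM5 and SPG7 turned above 0 with library size alone or without not-received replicate 1, and TOMM5 also without not-received replicate 3. None of these was called, and the cause was not tested.

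Replicate numbers were shared between the groups, and the titles give no more than the number. Same-numbered libraries correlated at -0.20, -0.07 and 0.05 in their deviations from the group means, and differently numbered ones at -0.19 to 0.25. No library correlated best with the library of its own number. Deviations from a mean of 3 libraries depend on each other, so these correlations cannot decide whether the numbers mark a pairing. With the replicate block 14 members were called higher, 1252 genes were called higher and 1384 lower, and PHB2 was the call not made (adjusted p = 0.0516). In the related lists the block ended the calls of HSCB, HSP90AA1 and MTHFD2 and added MIPEP higher and ROMO1 and PSAT1 lower. An uncalled member is not shown to be unchanged. Standard errors of the members ran from 0.05 to 0.36 log2.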
